A study of Danio rerio with 13 samples.

Results

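The tert mutant carriers were the 8 fish, of 13 in all, whose labels gave at least 1 mutant copy of tert, the gene for the catalytic protein subunit of telomerase. They comprised 5 heterozygotes (tert+/-) and 3 homozygotes (tert-/-), pooled and compared with the 5 fish labelled wild type, and each genotype was then compared with wild type on its own. All 13 fish were male zebrafish (Danio rerio) labelled as AB and 3 months old, and RNA was sequenced from the brain. The study's methods named the mutant line tert hu3430 and counted 5, 5 and 3 animals. The labels did not say whether the carriers and the wild-type fish were siblings. Libraries are called by genotype and a number that follows the order of the records and pairs no fish.

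As background, telomerase adds repeated DNA to chromosome ends from an RNA template that it carries, and tert supplies the reverse transcriptase. Most neurons have stopped dividing and keep little telomerase, whereas dividing progenitors, which are abundant in the adult zebrafish brain, need it to keep their telomeres long. The hu3430 allele is a nonsense mutation, so a transcript of tert can be present in homozygotes that lack the enzyme, and zebrafish without the enzyme age early.

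Library totals lay between 22008289 and 29347329 counted reads in wild type and between 23215636 and 32380953 in carriers. All lists of neuron, radial glia, oligodendrocyte and microglia markers were detected in the libraries, with summed neuron markers of 6955 to 7674 CPM in wild type and 7118 to 8601 in carriers. CPM is the count of a gene scaled to a common library total after TMM normalization. The share of counts from mitochondrially encoded genes was 9.42 ± 1.28% in wild type (SD, n = 5) and 11.08 ± 1.81% in carriers (n = 8), with p = 0.107 in a 2-sided exact permutation test over all regroupings of the libraries and 0.247 after adjustment over 6 library measures. The libraries tert+/- 1 and tert-/- 1 stood apart from the other 11 at -59.1 and -56.7 on the first principal component, where the rest lay between -13.4 and 35.8.

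No gene passed the threshold between carriers and wild type. Of 20064 genes tested with edgeR's quasi-likelihood test, 0 had a Benjamini-Hochberg adjusted p under 0.05 (0%), and the lowest adjusted p was 0.116, for slc6a18, followed by 0.917. At an unadjusted p under 0.05 there were 945 genes (4.71%), where 1003.2 would be expected with no difference, of which 508 (2.53%) were higher in carriers and 437 (2.18%) lower. With limma voom 0 genes were called and 966 (4.81%) had an unadjusted p under 0.05. DESeq2 called 8 of 26989 genes (0.0296%), all higher in carriers, among them slc6a18, ENSDARG00000099438, apoa4b.2, tert, fabp10b, ENSDARG00000099747 and dnajc8, and 1310 of 26991 (4.85%) had an unadjusted p under 0.05. Of those, slc6a18, ENSDARG00000099438 and apoa4b.2 were called by DESeq2 in 13 of 13 fits that left out 1 library each, tert in 9, fabp10b in 7, and dnajc8 and ENSDARG00000099747 in 6. The number DESeq2 called ran from 4 without wild type 5 to 98 without tert-/- 1, while edgeR called 0 in each of those fits. In whole-brain RNA, fewer cells of a type and less RNA per cell cannot be told apart.

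Each carrier genotype was compared with wild type in 1 edgeR fit of 3 genotypes. Both comparisons share the 5 wild-type libraries, so a gene that is extreme in wild type enters both. At an unadjusted p under 0.05 there were 1553 genes (7.74%) in tert+/- and 429 (2.14%) in tert-/-, with 0 genes called in either at an adjusted p under 0.05. A set of 106 genes (0.528% of those tested) had an unadjusted p under 0.05 in both genotypes and lay on the same side of wild type, 62 higher and 44 lower, and these are called shared genes below. They made up 6.83% of the tert+/- genes and 24.7% of the tert-/- genes, and another 3 genes passed in both genotypes in opposite directions. The median size of the shared differences was 0.64 on the log2 scale, and 22 higher and 9 lower genes exceeded 1. Of the 106, 72 differed from wild type by more in tert-/- than in tert+/- fish, and 3 had an unadjusted p under 0.05 between the carrier genotypes. With fewer tert-/- libraries, a larger difference was needed there to reach the same p. The choice of shared genes therefore favours larger differences in tert-/-, and the 72 show no trend with genotype. Without tert-/- 1 the number of shared genes was 333.

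Complete separation of the libraries was rarer. In 32 genes (0.159%) every carrier lay outside the wild-type range, 20 of them above it (0.0997%) and 12 below (0.0598%). Among this many tested genes, some separate by chance alone. The number expected with no difference was not worked out, so no excess is read from the 32. Separation alone therefore does not mark a gene as changed. Without tert-/- 1 alone 164 genes separated, and the number lay between 36 and 96 without any other single library. Of the 32, 16 were shared genes. Those above included slc6a18, dnajc8, the muscle genes myoz2 and synpo2la, and me1, the cytosolic malic enzyme. Those below included dnajb1a, adam15, the ciliary gene ahi1, and zc3h12a, a ribonuclease that restrains inflammatory transcripts. The gene zc3h12a lay 97 entries from tert on its chromosome and was not a shared gene.

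Transcripts of tert itself, ENSDARG00000042637, were more abundant in carriers. Wild type 1 to 5 had 3.88, 2.24, 1.98, 2.09 and 2.54 CPM, tert+/- 1 to 5 had 8.80, 5.04, 5.10, 3.61 and 5.92, and tert-/- 1 to 3 had 10.4, 3.96 and 9.71. Of the 8 carriers, 7 lay above the highest wild-type library, and tert+/- 4 lay just below it. The log2 fold change was 1.37 ± 0.29 (SE), with an adjusted p of 0.917 in edgeR and of 0.00999 in DESeq2. It was 1.16 in tert+/- and 1.66 in tert-/-, and the carrier genotypes overlapped (adjusted p = 0.975 between them in edgeR). Counts per gene do not cover the mutated base, so these values cannot check the genotype labels.

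**Figure D1:**
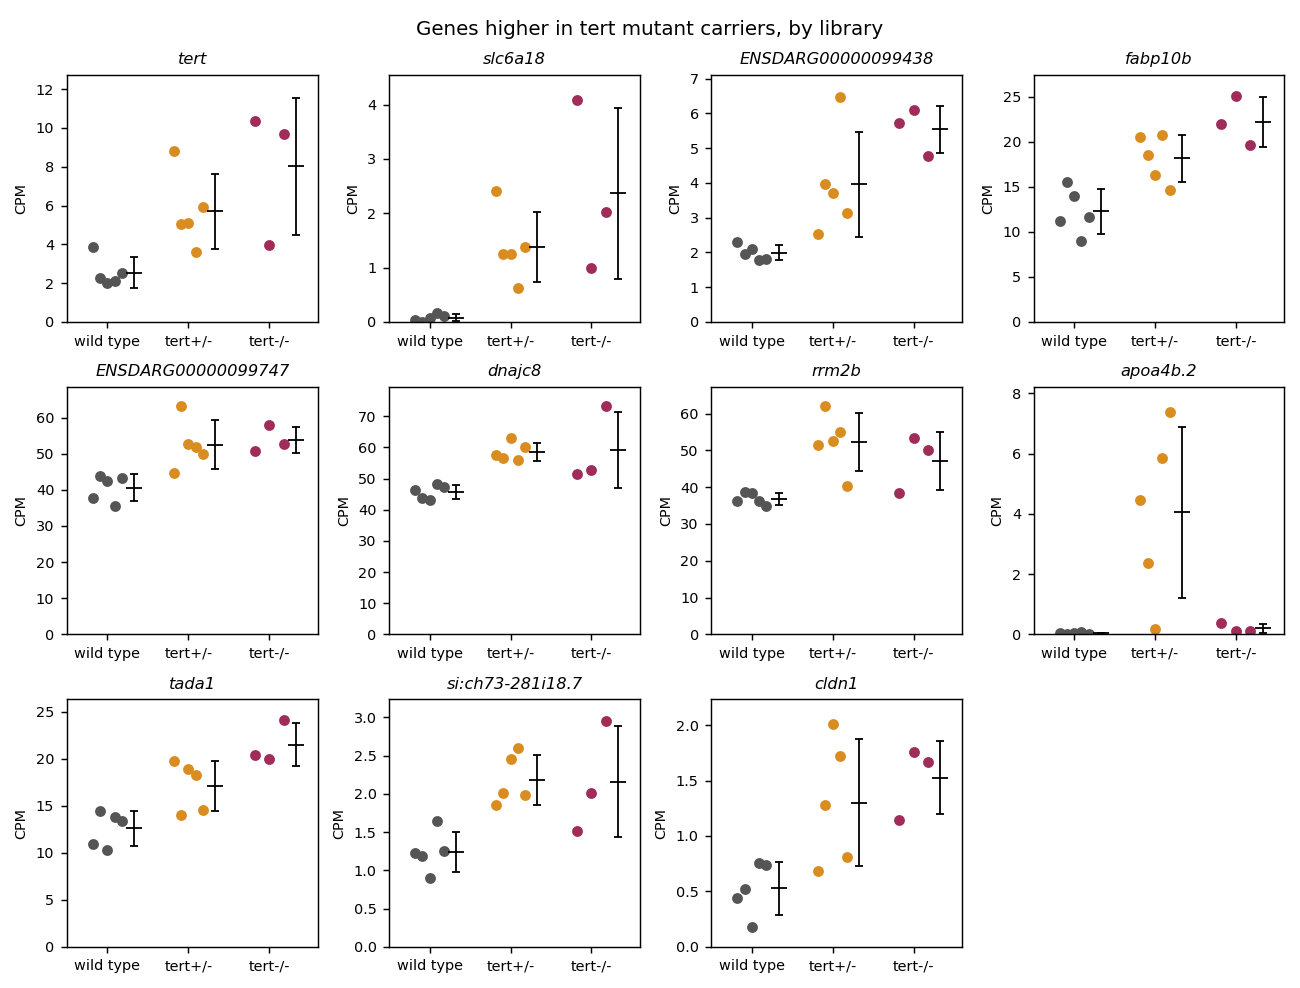
CPM of tert and of other genes higher in carriers, in each of the 13 libraries, with 1 point per fish and the mean and SD of each genotype beside the points. Every carrier lay above every wild type for slc6a18, ENSDARG00000099438, ENSDARG00000099747, dnajc8 and apoa4b.2, and for apoa4b.2 the tert-/- points stayed at or below 0.372 CPM while tert+/- points reached 7.38.

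The gene that differed most by p was slc6a18 (ENSDARG00000068387), which belongs to the sodium-dependent amino acid transporters and in mammals lies beside the telomerase gene. In wild type 1 to 5 it had 0.0436, 0, 0.072, 0.171 and 0.117 CPM, from 11 reads in all. In tert+/- 1 to 5 it had 2.41, 1.24, 1.25, 0.617 and 1.38 CPM, and in tert-/- 1 to 3 it had 4.09, 0.99 and 2.02. All 8 carriers were above all 5 wild types, with the lowest, tert+/- 4, at 14 reads. On the log2 scale it was higher by 4.35 ± 0.61 (adjusted p = 0.116 in edgeR and 2.58e-08 in DESeq2), at 4.0 in tert+/- and 4.78 in tert-/-. Both tert and slc6a18 were highest in tert-/- 1 and, among carriers, lowest in tert+/- 4.

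Genes near tert were frequent among the shared genes. In the order of the count table, 96 tested genes other than tert lay within 100 entries of it and on its chromosome, and 10 of them were shared genes, against 0.528% of all genes tested. Another 5 shared genes lay farther along that chromosome, which held 3.80% of the genes tested, and 5 of the 96 had libraries that did not overlap. The 10 were mixed in direction. Higher in carriers were slc6a18 (4 entries away), the formin fhod3a (3 entries), ENSDARG00000099438 (14), ENSDARG00000099747 (25), the splicing-associated J protein dnajc8 (32) and clptm1l (33), which also neighbours the telomerase gene in mammals. Lower were ENSDARG00000077668 (6 entries), the axon-guidance semaphorin sema6ca (9), the chromatin-remodelling subunit vps72 (ENSDARG00000063718, 11) and tmem65 (19). A second and more abundant gene with the symbol vps72, ENSDARG00000088567, was at 0.01 ± 0.13 on the log2 scale. Distances count entries on either side of tert, and positions were not used. Genotype at tert and at the genes linked to it cannot be told apart in this design.

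Of these, ENSDARG00000099438 had 2.31, 1.96, 2.09, 1.78 and 1.8 CPM in wild type 1 to 5, against 2.53, 3.95, 3.72, 6.48 and 3.12 in tert+/- 1 to 5 and 5.73, 6.10 and 4.78 in tert-/- 1 to 3. The groups did not overlap, although tert+/- 1 lay close to wild type 1. Its log2 fold change was 1.2 ± 0.23, at 0.99 in tert+/- and 1.48 in tert-/- (DESeq2 adjusted p = 0.00347).

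The differences of dnajc8 and ENSDARG00000099747 were small, and for dnajc8 the tert-/- fish were spread widely. For dnajc8 the wild types had 46.5, 43.8, 43.0, 48.2 and 47.5 CPM, the tert+/- fish 57.7, 56.5, 63.0, 56.0 and 60.0, and the tert-/- fish 51.5, 52.8 and 73.4. No carrier reached down to the wild-type range, and the log2 fold change was 0.36 ± 0.08, at 0.36 in tert+/- and 0.37 in tert-/- (DESeq2 adjusted p = 0.0405). ENSDARG00000099747 ran from 35.6 to 43.9 CPM in wild type and from 44.7 to 63.2 in carriers, with a log2 fold change of 0.38 ± 0.08.

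For clptm1l the difference was smaller still. Wild types had 40.8, 48.6, 43.0, 45.8 and 39.7 CPM, tert+/- fish 51.1, 49.1, 52.3, 52.4 and 46.7, and tert-/- fish 51.9, 52.6 and 53.3. Only tert+/- 5 was inside the wild-type range, and the log2 fold change was 0.23 ± 0.06 (adjusted p = 0.917 in edgeR).

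For sema6ca the homozygotes lay below the heterozygotes by a narrow margin, and tert+/- 1 was inside the wild-type range. Wild types had 7.59, 8.38, 6.81, 8.33 and 9.33 CPM, tert+/- fish 7.68, 6.40, 5.73, 6.13 and 4.18, and tert-/- fish 3.50, 3.99 and 4.08. The difference from wild type was -0.43 in tert+/- and -1.07 in tert-/- on the log2 scale. With tada1 and adam15, sema6ca was 1 of the 3 shared genes with an unadjusted p under 0.05 between the carrier genotypes. The adjusted p of sema6ca between them was 0.975 in edgeR.

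Shared genes also stood side by side elsewhere in the table. Of the 106, 36 had another within 20 entries, and 11 of those 36 were tert and its neighbours. The kit does not mark strand, so reads of overlapping genes at such places cannot be told apart. The share expected for genes placed at random in the table was not worked out, so no excess is read from the 36. Some shared genes described below by function lay in the same stretch of the table. On the chromosome of dnajb1a, mrpl12 lay 50 and colgalt1 105 entries from it. The shared gene atp13a1 lay 4 entries from colgalt1, and rdh8 (ENSDARG00000028048) lay 15 entries from atp13a1. Their differences are therefore not read as separate observations.

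Away from tert, fabp10b (ENSDARG00000091101), a fatty acid-binding protein of the liver family, was among the genes called by DESeq2. The wild types had 11.3, 15.5, 14.0, 9.01 and 11.6 CPM, the tert+/- fish 20.5, 18.5, 16.3, 20.8 and 14.6, and the tert-/- fish 22, 25.1 and 19.6. Only tert+/- 5 was below the highest wild type. In log2 terms the difference was 0.68 ± 0.15, at 0.56 in tert+/- and 0.86 in tert-/- (DESeq2 adjusted p = 0.0387).

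A trio of shared genes joined tada1 (ENSDARG00000100031), a subunit of the SAGA transcription coactivator, the tight-junction gene cldn1 (ENSDARG00000040045) and ENSDARG00000088389 within 3 entries. Wild types had 10.9, 14.4, 10.3, 13.8 and 13.4 CPM of tada1, tert+/- fish 19.8, 14.0, 18.9, 18.3 and 14.5, and tert-/- fish 20.4, 19.99 and 24.1. It was higher by 0.44 in tert+/- and by 0.77 in tert-/- on the log2 scale, and only tert+/- 2 overlapped wild type. For cldn1 the log2 fold change was 1.38 ± 0.35 at 0.18 to 0.754 CPM in wild type and 0.683 to 2.01 in carriers. ENSDARG00000088389 went the other way, with 1.48 to 2.21 CPM in wild type and 0.738 to 1.4 in carriers, which did not overlap (log2 fold change -0.71 ± 0.18).

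One higher gene lay far along the chromosome of tert, 797 entries away. This was rrm2b (ENSDARG00000033367), which in mammals encodes a p53-induced subunit of ribonucleotide reductase that supplies nucleotides for DNA repair and for mitochondrial DNA. Wild types had 36.3, 38.7, 38.5, 36.3 and 34.8 CPM, tert+/- fish 51.4, 62.1, 52.5, 54.9 and 40.3, and tert-/- fish 38.3, 53.3 and 50.01. Of the carriers, 7 were above every wild type, and tert-/- 1 was within their range. Its log2 fold change was 0.45 ± 0.10 (adjusted p = 0.917 in edgeR), at 0.50 in tert+/- and 0.35 in tert-/-. Nearer to tert, at 106 entries, si:ch73-281i18.7 was at 0.80 ± 0.19 on the log2 scale, with 0.90 to 1.64 CPM in wild type and 1.52 to 2.95 in carriers, where only tert-/- 1 overlapped wild type.

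The largest fold change among the genes named for the lowest p in each direction was that of apoa4b.2 (ENSDARG00000020866). It is an apolipoprotein A-IV gene of lipid-absorbing tissue and was not a shared gene, with an unadjusted p of 0.0627 in tert-/- in edgeR. Wild type 1 to 5 had 0.0436, 0, 0.036, 0.0685 and 0 CPM, tert+/- 1 to 5 had 4.46, 2.37, 0.179, 5.86 and 7.38, and tert-/- 1 to 3 had 0.372, 0.0958 and 0.116. Every carrier exceeded every wild type, yet 2 tert-/- libraries rested on 3 reads each. Against wild type the log2 fold change was 6.88 in tert+/- and 2.55 in tert-/- (adjusted p = 0.957 between them in edgeR). Summed intestine and pancreas genes were 32.1 to 42.9 CPM in wild type, 56.8 to 94.5 in tert+/- and 35.1 to 49.4 in tert-/-, and the part of tissue other than brain in this result was not tested.

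Among the genes lower in carriers, dnajb1a (ENSDARG00000099383), a co-chaperone of Hsp70, had the lowest p. Wild types had 7.42, 6.38, 6.48, 7.68 and 7.73 CPM, tert+/- fish 5.26, 3.22, 4.70, 5.16 and 4.09, and tert-/- fish 6.17, 4.95 and 3.96. All 8 carriers were below all wild types, the nearest being tert-/- 1. The difference was -0.60 ± 0.14 on the log2 scale (adjusted p = 0.917 in edgeR), at -0.67 in tert+/- and -0.50 in tert-/-.

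For adam15 (ENSDARG00000089213), a membrane metalloprotease, the libraries were also separate. Wild types had 10.4, 11.4, 11.6, 9.80 and 9.95 CPM, tert+/- fish 6.75, 8.49, 7.43, 9.17 and 8.84, and tert-/- fish 7.25, 6.67 and 5.51. The difference was -0.38 in tert+/- and -0.71 in tert-/- on the log2 scale.

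Genes for neural signalling and patterning were among the lower ones. The D1 dopamine receptor gene drd1 (ENSDARG00000038918) had 3.75, 3.68, 4.32, 3.02 and 4.1 CPM in wild type, 1.97, 2.37, 1.97, 3.31 and 2.68 in tert+/- and 2.88, 2.33 and 2.29 in tert-/-. Only tert+/- 4 was inside the wild-type range. Its log2 fold change was -0.61 ± 0.15, at -0.62 in tert+/- and -0.59 in tert-/-.

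The LIM-homeobox gene lhx2 (ENSDARG00000031222), which patterns the forebrain and eye, had 19.2, 25.1, 23.9, 20.6 and 24.2 CPM in wild type, 12.4, 17.4, 12, 21.0 and 14.8 in tert+/- and 11.2, 16.6 and 16.5 in tert-/-. Again tert+/- 4 alone overlapped wild type, and the log2 fold change was -0.57 ± 0.14. The transcription factor irx3, of the Iroquois family, was a shared gene as well, at -0.42 on the log2 scale.

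For colgalt1 (ENSDARG00000073974), a collagen galactosyltransferase, the size of the difference came from a few wild types. They had 10.04, 1.72, 2.95, 2.98 and 8.47 CPM, against 1.04, 1.78, 1.3, 2.51 and 1.42 in tert+/- and 1.77, 2.14 and 1.94 in tert-/-. Wild type 1 and wild type 5 were high, and wild type 2 was within the range of the carriers. The log2 fold change was -1.58 ± 0.37 and lay between -1.81 and -1.21 over all alternatives.

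The other lower genes have no role that is given here. The libraries of sb:cb81 (7.54 to 9.08 CPM in wild type, 4.32 to 6.75 in carriers) and zgc:174931 (0.655 to 0.976 and 0.132 to 0.527) were separate, with log2 fold changes of -0.51 ± 0.13 and -1.22 ± 0.29. For lnc.133, si:dkey-20i20.9, si:ch1073-44g3.1 and si:dkey-166k12.1 the log2 fold changes were -0.60, -1.35, -0.26 and -0.89, and the ranges overlapped. Of these, si:dkey-166k12.1 lay on the chromosome of tert, 934 entries away.

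**Figure D2:**
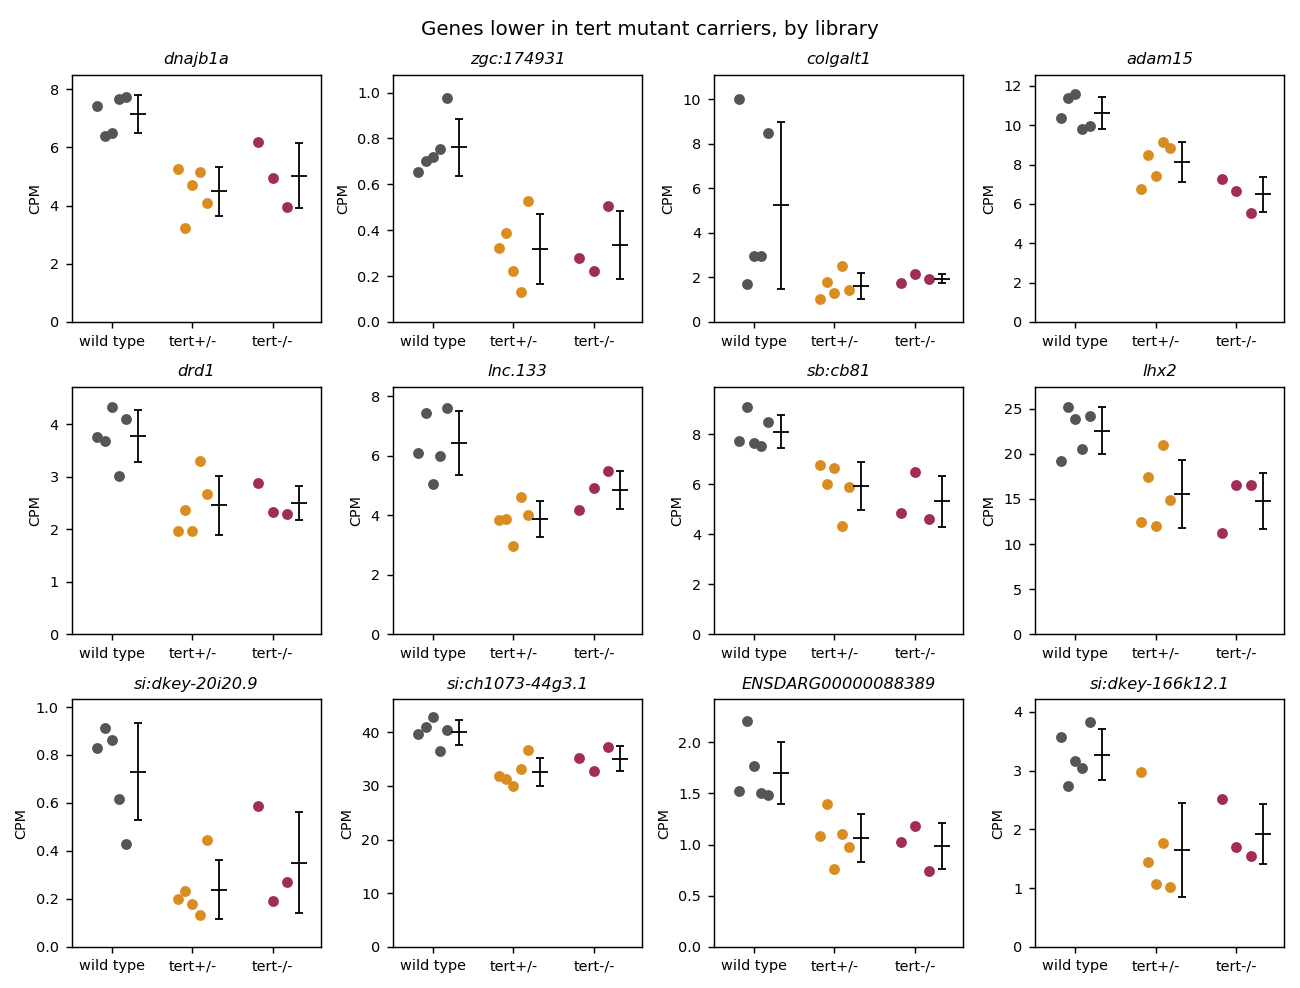
CPM of the genes named as lower in carriers, in each of the 13 libraries, with 1 point per fish and the mean and SD of each genotype. All carriers lay below all wild types for dnajb1a, zgc:174931, adam15, sb:cb81 and ENSDARG00000088389, whereas the high mean of colgalt1 in wild type came from 2 fish at 10.04 and 8.47 CPM.

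Across the genes named for the lowest p in each direction the carrier genotypes lay on the same side of wild type, which the rule for naming them required. The exceptions in size were apoa4b.2, tada1 and adam15, the only genes of that set with an unadjusted p under 0.05 between tert-/- and tert+/-, and their adjusted p lay between 0.957 and 0.975 in edgeR. Among the 945 genes with an unadjusted p under 0.05 in the pooled comparison, 935 had the same sign in both genotypes and 10 had opposite signs, and 87 of them (9.21%) differed between the genotypes at that level, against 4.62% of all genes tested. The pooling itself favours genes with the same sign in both.

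**Figure D3:**
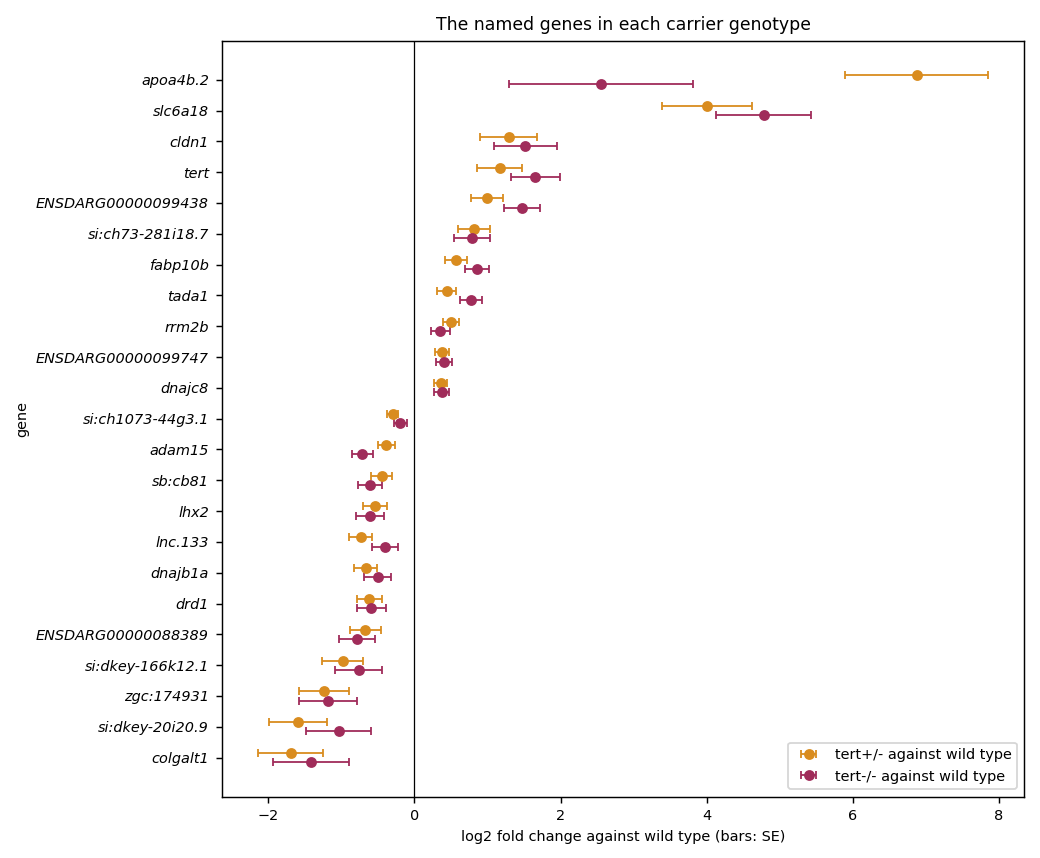
Log2 fold change against wild type of the genes named for the lowest p in each direction in tert+/- and in tert-/- fish, with bars for the SE. Both genotypes lay on the same side of 0 for every gene drawn, which the choice of the genes required, and of these apoa4b.2 was the widest apart at 6.88 and 2.55.

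Some shared genes were high not in all carriers but in a subset that cut across both genotypes. The monocarboxylate transporter gene slc16a8 (ENSDARG00000045153), known from the retinal pigment epithelium, had 17.7, 12.7, 14.4 and 13.6 CPM in tert+/- 1, 3 and 5 and tert-/- 3, and between 0.507 and 1.28 in all other libraries. The meiosis gene meiob (ENSDARG00000062442), 27 entries away on the same chromosome, had 6.59, 5.82, 3.04 and 3.88 CPM in the same 4 fish and between 0.0701 and 0.195 elsewhere. ENSDARG00000104629, 38 entries from slc16a8, had 20.2, 14.6, 15.8 and 18.9 CPM in those 4 and between 0 and 0.132 elsewhere. The 3 genes therefore picked out the same 4 carriers, on a chromosome other than that of tert. They were chosen as shared genes higher than wild type, so the lack of a high wild type is no finding. They lay within 65 entries and are not read as separate observations.

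Their log2 fold changes of 3.39, 4.50 and 8.32 over all carriers thus average carriers with high and with low values. The interferon-induced gene ifit9, 41 entries from meiob, had 0.402, 0.672, 0.0811 and 0.388 CPM in those fish, but 0.0388, 0.062 and 0.0958 in tert+/- 2, tert-/- 1 and tert-/- 2 too, and 0 in every wild type.

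A different subset carried si:dkey-10f21.16 (ENSDARG00000092159). It had 6.31 and 5.20 CPM in tert+/- 3 and 4 and 3.41, 4.60 and 4.62 CPM in tert-/- 1 to 3, and 0 counts in tert+/- 1, 2 and 5 and in all 5 wild types. The apolipoprotein gene apoea, 321 entries from tert on its chromosome, and the chitinase gene chia.3 were high in heterozygotes other than tert+/- 3. For apoea, tert+/- 1 to 5 had 5.47, 3.02, 0.0448, 7.62 and 7.50 CPM, against at most 0.105 in wild type and 0.062 in tert-/-. For chia.3 they had 4.62, 1.05, 0.134, 3.17 and 5.31 CPM, against at most 0.108 and 0.093. For both, tert+/- 3 lay at the level of the other genotypes, and neither gene was shared. Of 20 apolipoprotein genes, 12 were higher in tert+/- fish and 14 in tert-/- fish, with medians of 0.11 and 0.19. Apart from apoea, named as a member of its list, the genes of subsets were chosen after their values were seen. Few reads in wild type or a large fold change were among the grounds, so low wild types are no result for these genes.

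**Figure D4:**
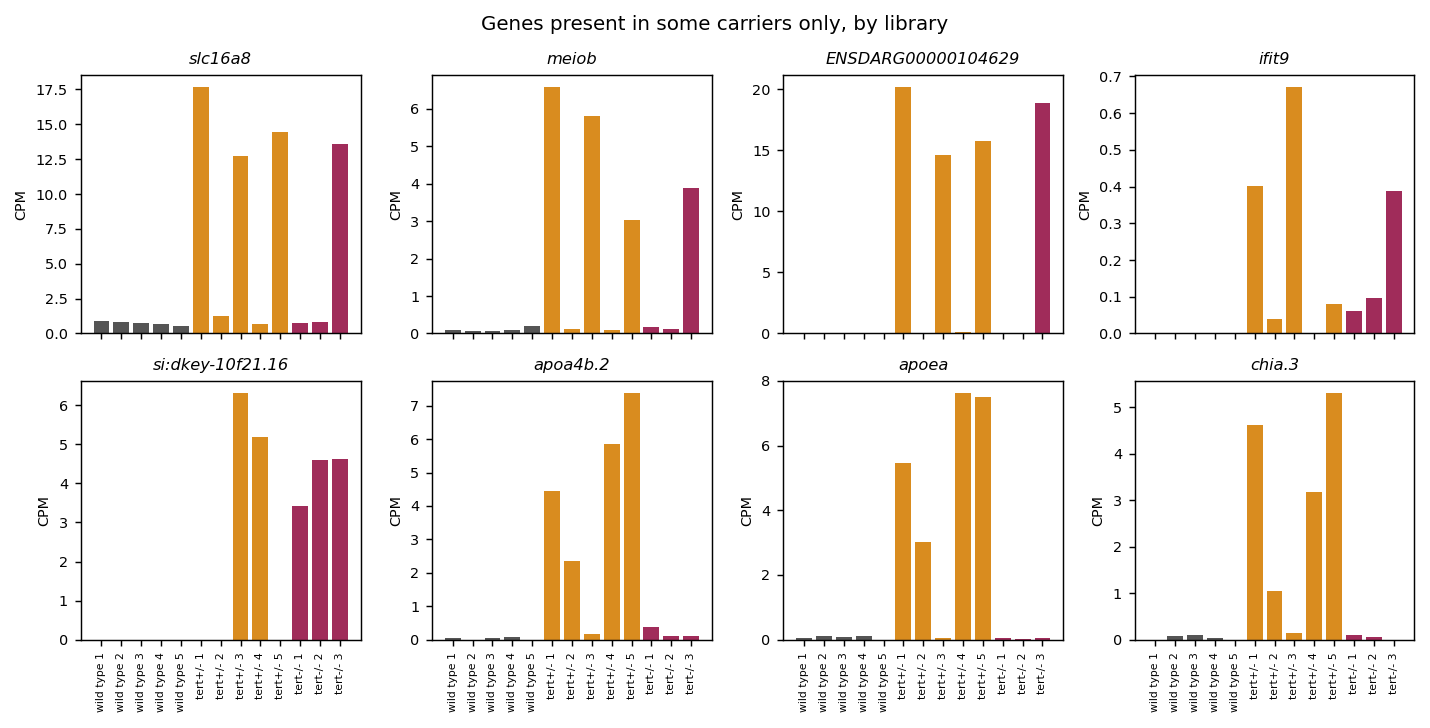
CPM in each of the 13 libraries of genes high in some carriers, as bars coloured by genotype. The upper row shows slc16a8, meiob and ENSDARG00000104629 high in tert+/- 1, 3 and 5 and tert-/- 3, with ifit9 beside them, and the lower row shows si:dkey-10f21.16 in 5 carriers and apoa4b.2, apoea and chia.3 mainly in tert+/- fish.

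Gene lists were described by how many of their members were higher in carriers, beside 50.3% of all genes tested and a median log2 fold change of 0.00 over all of them. Counts of members with an unadjusted p under 0.05 stand beside 2.53% of all genes tested for higher and 2.18% for lower. No member of any list had an adjusted p under 0.05 in edgeR. Of 25 telomerase and telomere genes, 17 were higher with a median of 0.03 (0.01 without wild type 2), and tert was the only one with an unadjusted p under 0.05. Of 35 p53 and damage-response targets, 26 were higher with a median of 0.07 (0.10 in tert+/- and 0.00 in tert-/-, and 0.03 for all carriers without tert+/- 1), and rrm2b alone had an unadjusted p under 0.05. The death receptor gene fas came next at 0.66 ± 0.34 on the log2 scale, with 0.103 to 0.39 CPM in wild type and 0.224 to 0.661 in carriers.

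Genes of energy metabolism were mostly higher by small amounts. All 13 mitochondrially encoded protein genes were higher, with a median of 0.29 (0.37 in tert+/- and 0.14 in tert-/-), and 8 had an unadjusted p under 0.05. The median was 0.12 without wild type 1, wild type 5 and tert+/- 3 together, a setting chosen after seeing the data. For mt-nd1, a complex I subunit, wild types ran from 2870 to 3854 CPM and carriers from 3108 to 4914, so the groups overlapped. Of 90 nuclear oxidative phosphorylation genes, 89 were higher, with a median of 0.11 (0.13 and 0.11), 8 with p under 0.05, among them the ATP synthase subunits atp5pf and atp5po at 0.16 each. The median was 0.07 without wild type 1, and 83 to 89 were higher in fits that left out 1 library, but 75 without those 3 libraries together. Of 45 proteasome subunits 42 were higher (median 0.08), and of 73 mitochondrial ribosomal proteins 59 (median 0.08, and 0.04 without wild type 3), with mrpl12 at 0.26 ± 0.07 a shared gene. Members of these lists are measured in the same 13 libraries and move together. The mitochondrial share given above is made up of mitochondrially encoded genes, so it is no separate observation from their list. It overlapped between the groups, at 8.14 to 11.2% in wild type and 9.41 to 13.85% in carriers. Its part in the counts of the other lists was not tested.

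Genes of tissues other than brain were also more often higher. Of 40 skeletal muscle genes 31 were higher with a median of 0.60 (0.67 in tert+/- and 0.42 in tert-/-), 18 with an unadjusted p under 0.05 and higher and 3 lower. For myoz2, a Z-disc protein, wild types had 2.23, 2.07, 2.67, 1.92 and 2.65 CPM, tert+/- fish 3.01, 3.68, 6.0, 3.09 and 3.53, and tert-/- fish 2.79, 5.24 and 4.04. These did not overlap, and the log2 fold change was 0.76 ± 0.20. The summed muscle list was 425 to 551 CPM in wild type and 401 to 1139 in carriers, highest in tert+/- 3.

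Of 32 intestine and pancreas genes 27 were higher (median 0.52, and 0.34 without tert+/- 4), at 0.60 in tert+/- and 0.15 in tert-/-. At an unadjusted p under 0.05, 12 of the 32 were higher and 0 lower. Of 22 T cell and neutrophil genes 19 were higher (median 0.35, and 0.17 without wild type 1, wild type 5 and tert+/- 3 together), 6 with an unadjusted p under 0.05. Among the latter, cd8a, the co-receptor of cytotoxic T cells, had at most 0.131 CPM in wild type and 2.51 in tert+/- 3, and ccr9, a homing receptor of T cells in gut and thymus, was at 1.07 ± 0.36 (ENSDARG00000055186). The granzyme gene gzm3.2, which was not in the list, went the other way as a shared gene at -1.63 ± 0.47. The part of tissue carried over at dissection in these lists was not tested.

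**Figure D5:**
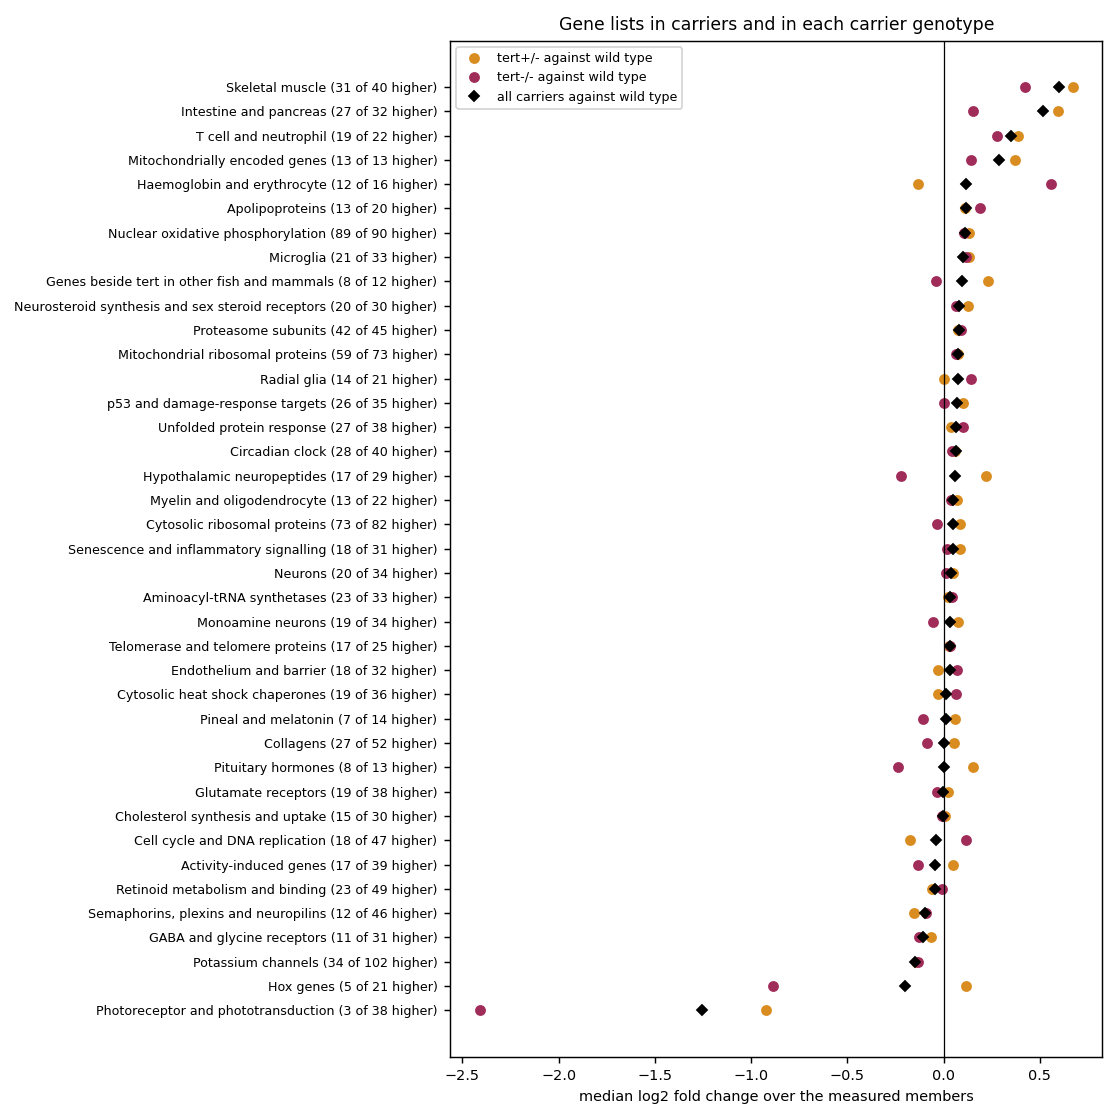
Median log2 fold change of the measured members of each gene list in all carriers, in tert+/- and in tert-/- fish against wild type, with the number of members higher in carriers. Skeletal muscle (0.60) and intestine and pancreas (0.52) lay highest, photoreceptor genes (-1.26) lay lowest, and most lists lay within 0.1 of 0.

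Photoreceptor genes had the lowest median, -1.26, with 35 of 38 lower and 8 with an unadjusted p under 0.05. The median was -0.01 without wild type 5 and 0.00 without wild type 1, wild type 5 and tert+/- 3 together, when 13 of 25 measured genes were higher. Summed photoreceptor markers ran from 4.93 to 396 CPM in wild type, from 2.64 to 219 in tert+/- and from 2.52 to 4.92 in tert-/-. The photoreceptor arrestin gene saga had 4.58, 0.175, 0.144, 0.0685 and 3.55 CPM in wild type, so 2 fish set the level of that group. The guanylate cyclase activator guca1a (ENSDARG00000101567) was a shared gene at -2.12 ± 0.59, with 0.524, 0.245, 0.36, 0.651 and 3.40 CPM in wild type and 0.0388 to 0.341 in carriers.

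Lists of neural signalling genes went in both directions. Of 102 potassium channel genes 68 were lower (median -0.15, and -0.09 without wild type 3), with -0.14 in tert+/- and -0.13 in tert-/-. The lowest p was that of kcng2, a modulatory subunit, at -0.24 ± 0.09. Of 46 semaphorin, plexin and neuropilin genes 34 were lower (median -0.09, and -0.05 without tert+/- 1), and of 31 GABA and glycine receptor genes 20 (median -0.10, and from -0.19 without tert+/- 5 to -0.04 without tert+/- 1). Of 38 glutamate receptor genes, by contrast, 19 were higher and 19 lower. Of 34 monoamine neuron genes 19 were higher (median 0.03), of 29 hypothalamic neuropeptide genes 17 (median 0.06) and of 34 neuron markers 20 (median 0.04). The first of these medians was -0.04 without tert+/- 4 and the second -0.04 without tert+/- 2, while the third was 0.01 without tert-/- 1. For the neuropeptide genes the genotypes lay on opposite sides, at 0.22 in tert+/- (21 higher) and -0.22 in tert-/- (7 higher). Monoamine neuron genes were at 0.07 in tert+/- (23 higher) and -0.05 in tert-/- (10 higher). Lists outside neural signalling also split by genotype. Of 82 cytosolic ribosomal protein genes, 80 were higher in tert+/- (median 0.09) and 15 in tert-/- (median -0.03). Of 21 Hox genes, 12 were higher in tert+/- (median 0.12) and 1 in tert-/- (median -0.88). The Hox median over all carriers ran from -0.88 without tert+/- 2 to 0.10 without wild type 2.

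For genes of retinoid metabolism and of inflammation the medians of the lists were near the background. Of 49 retinoid genes 23 were higher (median -0.05), and 2 had an unadjusted p under 0.05 and were higher. The median was 0.05 without wild type 5, and 29 of 48 were higher without wild type 1, wild type 5 and tert+/- 3 together. The retinol dehydrogenase gene rdh8 (ENSDARG00000028048) was a shared gene at 0.47 ± 0.15. It had 13.4, 18.2, 16.6, 14.6 and 15.8 CPM in wild type, 21.7, 20.9, 21.22, 12.8 and 23.1 in tert+/- and 23.6, 29.0 and 22.2 in tert-/-. All carriers but tert+/- 4, which was below every wild type, were above the wild-type range. A second gene of that symbol, ENSDARG00000105060, was at 0.13 ± 0.19.

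Of 31 senescence and inflammatory genes 18 were higher (median 0.05, and 0.02 without tert+/- 4). At an unadjusted p under 0.05, 3 of the 31 were higher and 0 lower. The cytokine gene il1b was at 0.36 in tert+/- and 0.99 in tert-/-. For il1b the wild types had 2.66, 1.58, 2.27, 1.68 and 2.19 CPM, the tert+/- fish 2.21, 2.83, 2.6, 2.25 and 3.41, and the tert-/- fish 4.43, 3.67 and 4.23, so only the homozygotes lay clear of wild type. Of 33 microglia genes 21 were higher (median 0.10, and 0.04 without tert+/- 3). Their median was -0.06, with 15 higher, without wild type 1, wild type 5 and tert+/- 3 together. The macrophage perforin gene mpeg1 (ENSDARG00000043093) was a shared gene at 2.01 ± 0.62, with 0 to 0.785 CPM in wild type and 0.365 to 2.95 in carriers, whereas its more abundant copy ENSDARG00000055290 was at 0.31 ± 0.24.

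Of 40 circadian clock genes 28 were higher (median 0.06, and from 0.04 without wild type 5 to 0.11 without wild type 1, wild type 5 and tert+/- 3 together), and the repressor gene nr1d2a, at 0.65 ± 0.18, had 63.7 to 108 CPM in wild type and 90.8 to 177 in carriers. The hours at which the fish were sampled are not given in the sources used here. Of 47 cell cycle and DNA replication genes 18 were higher (median -0.04, at -0.18 in tert+/- and 0.12 in tert-/-), and the median changed sign without wild type 1, to 0.10. The G1 cyclin gene ccnd1 was at -0.33 ± 0.13, with -0.31 in tert+/- and -0.36 in tert-/-.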

How the data were processed

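RNA of 13 brain libraries was analysed. The authors deposited raw counts per gene; per the labels, reads were made with bcl2fastq 1.8.4, aligned to GRCz10 with STAR 2.4.1d and counted with featureCounts 1.4.6-p4, and the kit, TruSeq v2, does not mark strand. The annotation release of these counts is not given in the sources used here. The deposited RPKM values were not used. The table held 32105 identifiers, 26269 with a symbol. Symbols are written in lower case, genes that share a symbol are kept apart by identifier, and reads shared by close copies make such genes uncertain.

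Counts were tested with edgeR 4.0.16 in R 4.3.3 (TMM scaling, genes kept by filterByExpr at a minimum count of 10 within genotypes, 2-sided quasi-likelihood F test, Benjamini-Hochberg adjusted p under 0.05), leaving 20064 genes. The pooled fit weighted the 8 carriers alike, and a fit of 3 genotypes gave each genotype. Standard errors came from the F statistic. Library measures were compared by exact permutation tests. DESeq2 1.42.0, limma voom 3.58.1, other scaling and filters, equal weight per genotype, the run of numbers in the titles as a factor, and leaving out each library were alternatives. Methods were tested on simulated data in which changed genes differed alike in all carriers and no library was set apart. That test does not cover changes in a single genotype or in genes with few reads. P-values measure the spread between these fish.

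The genes named were tert, the genes with the lowest p in each direction up to 12 whose genotypes had the same sign, and up to 2 members per list with the lowest p; others were chosen after their values were seen. A gene that met the rule is not reported here. Members, lists and the window around tert were chosen with earlier results of these data known, and list members were matched by symbol, synonym or human-style name. Distances count entries in the table, and chromosomes were assigned from the symbols of neighbours in RefSeq (GRCz12tu). Sequences were not used here.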

Additional observations from a re-analysis of the deposited data

Results flagged for a closer look

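Among the genes named for the lowest p in each direction, 3 differed between tert-/- and tert+/- fish at an unadjusted p under 0.05 in edgeR. The log2 fold change of tert-/- against tert+/- was -4.32 for apoa4b.2, 0.33 for tada1 and -0.33 for adam15. The adjusted p was 0.957 for apoa4b.2 and 0.975 for the other two. Levels of tada1 and adam15 lay farther from wild type in tert-/- fish, and those of apoa4b.2 farther in tert+/- fish. Of 48 groups of 5 libraries checked for a library far from the others, 0 held one, where chance would give about 1 in 20. Genes chosen for a low p tend to have groups with little spread, so that rate need not hold for them. The tert-/- group, with 3 libraries, was not among those checked. The 0 therefore does not show that no library stood apart.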

How the results depend on the processing

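None of the genes named for the lowest p in each direction reversed under any alternative, and 472 of their values kept their side of the threshold while the other 8 were DESeq2 calls. These genes were chosen for a low p in the same libraries, so the lack of reversals lends them no support. As edgeR called 0 genes, keeping their side meant staying not called. DESeq2 called 8 genes where edgeR called 0, and edgeR called 0 under every other alternative. Leaving out 1 library at a time gave between 605 (without wild type 3) and 2073 (without tert-/- 1) genes with an unadjusted p under 0.05, between 73 and 333 shared genes, between 36 and 164 genes whose libraries did not overlap, and between 4 and 98 DESeq2 calls. The number of non-overlapping genes rose above 1.5 times 32 without wild type 1 to 5 (61, 71, 53, 96 and 80), tert+/- 1, 4 or 5 (50, 60 and 58) or tert-/- 2 or 3 (54 and 53) as well, as fewer libraries had to be apart. DESeq2 called 5 genes without wild type 3 or 4, and 16, 19, 24, 13 and 16 without tert+/- 2, 4 or 5 and tert-/- 2 or 3. Without tert+/- 1 and tert-/- 1 together, a choice made after seeing the data, 2579 genes had an unadjusted p under 0.05, 474 were shared, 310 did not overlap and DESeq2 called 227. The cause was not tested. No paired analysis was possible because the numbers follow the order of the records and pair no fish. Genes with few reads, such as apoa4b.2 in tert-/- fish, are limited by depth.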
